A study of Homo sapiens with 6 samples.

Results

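The matrix metalloproteinases (MMPs) and the tissue inhibitors of metalloproteinases (TIMPs) were examined as a gene family in prostate cancer cells exposed to HGF. The members, taken by name, were MMP1, MMP3, MMP7, MMP9, MMP10, MMP13, MMP14, TIMP1, TIMP2 and TIMP3, which are 10 of 19775 named genes and 18 of 41091 named probe sets of the array. DU145, an established androgen-independent cell line from a metastasis of a human prostate carcinoma, was moved to medium with charcoal-treated serum, from which steroid hormones are largely removed. A day later the cells received vehicle only or hepatocyte growth factor (HGF) at 25 ng/ml, and RNA was taken after 2, 8 and 24 hours (h). Each of the 6 conditions was read on 1 Affymetrix U133plus2.0 array, so a difference within a time point has no replicate error and no p-value, and 1 cell line stands for the disease. Neither the paper nor the labels say whether the 6 samples came from separate cultures.

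MMPs are zinc-dependent proteases that are made as inactive precursors, and most of them are released into the extracellular space, where they cleave collagens, other matrix proteins and cell surface proteins. Collagenases (MMP1, MMP13) cut fibrillar collagen, stromelysins (MMP3, MMP10) and matrilysin (MMP7) have broad matrix substrates, gelatinases such as MMP9 cut denatured collagen and basement membrane collagen, and MMP14 is anchored in the plasma membrane. TIMPs bind the active site of the proteases and block them. HGF acts through c-MET, a receptor tyrosine kinase, and in epithelial cells it is known for cell scattering and invasive growth, in which matrix proteolysis takes part.

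The arrays did not differ much in the share of probe sets that gave a usable signal. The values are intensities scaled here to a mean of 150 per array, called scaled signal, and signals under a floor of 30 were raised to 30 before ratios were taken. Between 33.1% and 36.7% of the probe sets of an array lay above the floor, and 10791 genes (54.6%) did so in at least 1 array. The 3′ to 5′ signal ratio of ACTB, a sign of RNA quality, differed more by time than by HGF, from 1.13 to 1.17 at 2 h over 1.31 to 1.36 at 8 h to 1.63 to 1.71 at 24 h, and its part in the values below was not tested. Among probe sets above the floor in both arrays the median log2 ratio of HGF over vehicle was -0.04 at 2 h, -0.09 at 8 h and 0.06 at 24 h. Their interquartile range spanned -0.70 to 0.40 at 8 h against -0.21 to 0.12 at 2 h and -0.18 to 0.29 at 24 h, so ratios of all genes were most widely spread at 8 h. Of the epithelial markers 7 of 7 were above the floor, as was 1 of 3 named prostate luminal markers (KLK3). The signal of KLK3 was low, at 39.5 to 110.1 on the brightest of its 3 probe sets, and KLK2 and TMPRSS2 lay under the floor in all 6 arrays. Of the leukocyte and endothelial markers 0 of 3 each were, with summed signals between 15.6 and 38.1 and between 23.6 and 36.3. Of 6 fibroblast markers, only COL1A1 was above the floor, and the defining markers COL1A2, COL3A1, DCN, LUM and PDGFRB lay under it in all 6 arrays, with a summed signal of the list between 89.3 and 140.3. In such bulk RNA a change in the number of cells that express a gene and a change in RNA per cell cannot be told apart.

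After 24 h of HGF, 2 of the 10 genes passed a selection rule as higher than with vehicle, the collagenase MMP1 and the inhibitor TIMP1, and the membrane-type MMP14 was above 2-fold on 1 of its 4 probe sets. After 8 h the inhibitors TIMP1 and TIMP2 were higher. None of the 10 passed at 2 h, and none was lower at any time. A gene was counted when at least 1 of its probe sets had a ratio of 2-fold or more and its probe sets together had a mean log2 ratio of 0.5 or more on the same side. The study set these thresholds for 24 h, and here they were applied at each time and between vehicle arrays. Its text does not describe how probe sets were averaged, and its listed ratios differ for some genes from the means used here. Here all named probe sets of a gene were averaged, and one at the floor in both arrays entered as 0, which decided the call of MMP14. Over all named genes this rule took 0.42% as higher and 0.0556% as lower at 2 h, 2.69% and 7.94% at 8 h, and 1.03% and 0.556% at 24 h. Between vehicle arrays, where no HGF was involved, it took 0.48% for 8 over 2 h, 1.3% for 24 over 2 h and 3.22% for 24 over 8 h in either direction, and 0 of the 10 genes in each.

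**Figure D1:**
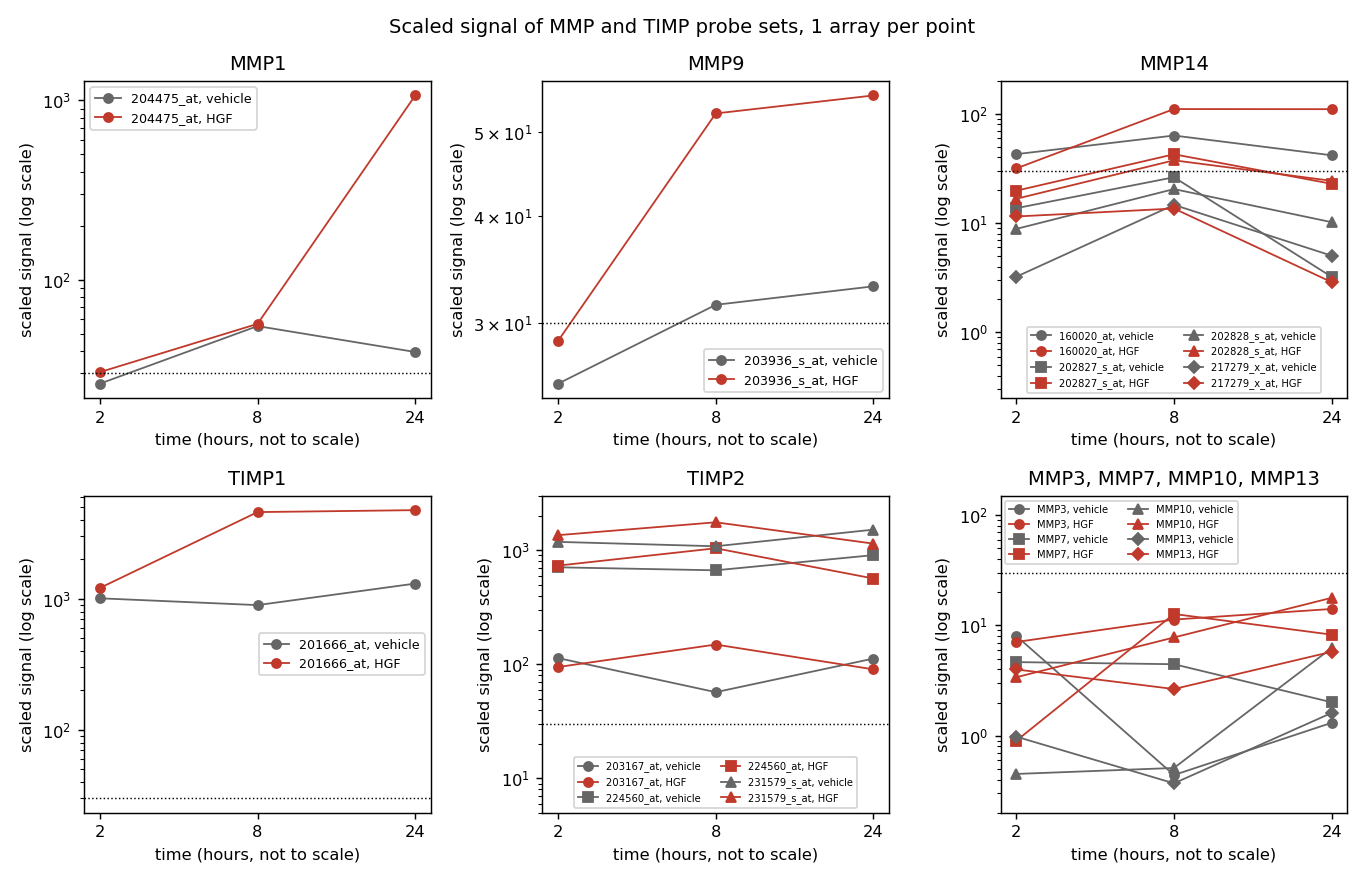
Scaled signal on a log axis against time in hours for MMP1, MMP9, MMP14, TIMP1, TIMP2 and the 4 MMP genes that stayed under the floor; each point is 1 array, grey is vehicle, red is HGF, marker shapes are probe sets or genes, and dots mark the floor of 30. The MMP1 probe set reached 1065.2 only with HGF at 24 h, TIMP1 stood at 4595.9 and 4756.1 with HGF at 8 and 24 h, and TIMP2 lay above vehicle at 8 h and below it at 24 h.

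MMP1, interstitial collagenase, cuts the native triple helix of fibrillar collagens. Its probe set 204475_at had a scaled signal of 26.3 with vehicle and 30.5 with HGF at 2 h, 55.1 and 56.7 at 8 h, and 39.5 and 1065.2 at 24 h. The 24-hour HGF array stood far above the other 5, which lay within 26.3 to 56.7 with HGF and vehicle intermixed. At 24 h the ratio was 26.9-fold, a log2 ratio of 4.75 and the highest of all 19775 genes. The log2 ratios at 2 and 8 h were 0.03 and 0.04, the former against a vehicle value raised to the floor. From 8 to 24 h the signal with HGF went up 18.8-fold, and with vehicle the log2 ratio was -0.48. The vehicle arrays themselves differed by a log2 ratio of 0.88 between 2 and 8 h with the 2-hour value at the floor, less than the 24-hour ratio of HGF over vehicle. All of the MMP1 result therefore rested on 1 array.

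MMP13, collagenase-3, also cuts fibrillar collagen. Its probe set 205959_at gave 0.98 with vehicle and 3.99 with HGF at 2 h, 0.37 and 2.65 at 8 h, and 1.61 and 5.77 at 24 h. All 6 values were under the floor, so no ratio was taken. For the stromelysin MMP3, probe set 205828_at gave 8.03 and 7.08 at 2 h, 0.44 and 11.3 at 8 h, and 1.31 and 14.1 at 24 h in the same order. The second stromelysin, MMP10, gave 0.45 and 3.39, 0.51 and 7.78, and 6.24 and 17.8 on probe set 205680_at. Both were under the floor in every array, the highest of their values being those with HGF at 24 h.

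MMP7, matrilysin, is a small MMP of epithelial cells that lacks the hinge and the hemopexin domain. Its probe set 204259_at gave 4.65 with vehicle and 0.90 with HGF at 2 h, 4.45 and 12.7 at 8 h, and 2.01 and 8.25 at 24 h, all under the floor. Of the 9 probe sets of the family under the floor in all 6 arrays, 3 had a higher value with HGF at 2 h, 6 at 8 h and 6 at 24 h. Among all 21975 named probe sets under the floor in all arrays the share was 50.0%, 42.9% and 46.7%. Below the floor 18.2% to 19.8% of these probe sets were at least 2-fold higher with HGF, so single values there carry no direction.

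**Figure D2:**
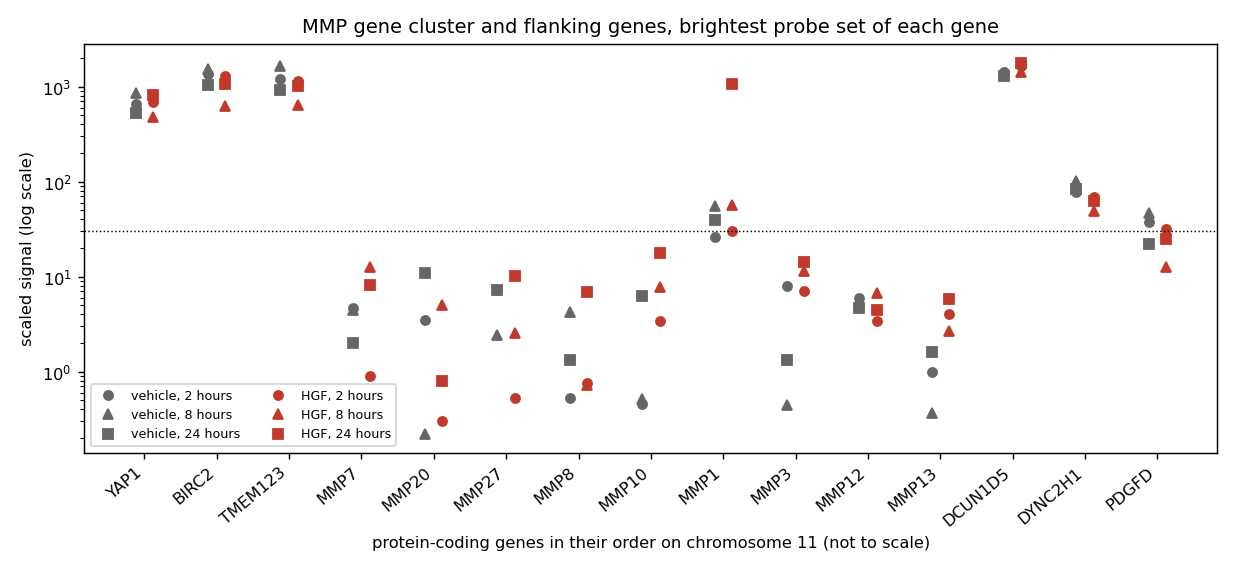
Scaled signal on a log axis of the brightest probe set of each named protein-coding gene, in chromosome order and not to scale, across the MMP gene cluster of chromosome 11 and its flanks; grey is vehicle, red is HGF, shapes mark 2, 8 and 24 h, and dots mark the floor of 30. MMP1 crossed the floor, with 1 point at 1065.2, while its 8 neighbouring MMP genes stayed under it in all 6 arrays.

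The genes for MMP1, MMP3, MMP7, MMP10 and MMP13 lie side by side on chromosome 11 with 4 further MMP genes (MMP8, MMP12, MMP20 and MMP27). In the RefSeq order the cluster runs MMP7, MMP20, MMP27, MMP8, MMP10, MMP1, MMP3, MMP12 and MMP13, between TMEM123 on one side and DCUN1D5 on the other. Of these 9 genes, MMP1 was above the floor and the other 8 were under it in all 6 arrays. MMP10 and MMP3 flank MMP1 directly, and neither exceeded 17.8 in any array. The genes outside the cluster did not have a ratio like that of MMP1 at 24 h, with log2 ratios of 0.51 for YAP1, 0.05 for BIRC2, 0.12 for TMEM123, 0.16 for DCUN1D5 and -0.13 for DYNC2H1, while PDGFD was under the floor in both arrays. At 8 h, YAP1 (-0.67), BIRC2 (-1.30), TMEM123 (-1.37) and DYNC2H1 (-0.75) were lower by the selection rule, a call that 7.94% of all genes received at that time, and DCUN1D5 had a log2 ratio of 0.04. The plot of the cluster shows MMP1 as its single gene with usable signal.

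MMP9, gelatinase B, cuts denatured collagen and collagen type IV of basement membranes. Its probe set 203936_s_at gave 25.5 with vehicle and 28.6 with HGF at 2 h, 31.5 and 52.6 at 8 h, and 33.1 and 55.2 at 24 h. The HGF arrays of 8 and 24 h stood above all 3 vehicle arrays, and both 2-hour values lay under the floor. The ratio was 1.67-fold at both later times, a log2 ratio of 0.74, which is short of the 2-fold step of the rule. Vehicle arrays differed by log2 ratios of 0.07 to 0.14. No value exceeded 55.2, so all lay near the floor of 30, which bounds what a ratio can show.

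MMP14, the membrane-type MMP also called MT1-MMP, activates the precursor of MMP2 at the cell surface, for which it uses TIMP2 as a bridge. It has 4 probe sets, of which 160020_at was above the floor in all arrays. This set gave 42.8 with vehicle and 31.7 with HGF at 2 h, 63.4 and 110.8 at 8 h, and 41.8 and 110.5 at 24 h. The HGF arrays of 8 and 24 h were the highest 2 of the 6, and the HGF array of 2 h the lowest. Probe sets 202827_s_at and 202828_s_at were above the floor only with HGF at 8 h, at 42.7 and 37.6, and 217279_x_at did not pass 14.7 anywhere. At 24 h only 160020_at gave a ratio, a log2 ratio of 1.40, and the other 3 were under the floor in both arrays. There 202827_s_at gave 3.22 with vehicle and 22.9 with HGF, 202828_s_at 10.2 and 24.4, and 217279_x_at 5.03 and 2.88. These 3 sets therefore neither repeat nor contradict the ratio of 160020_at. The mean over all 4 probe sets, which counts one at the floor as 0, was -0.11 at 2 h, 0.41 at 8 h and 0.35 at 24 h. The gene did not pass the rule with this averaging. With the brightest probe set alone, MMP14 did pass at 24 h, as the only probe set with a ratio was 160020_at. The direction at 2 h depended on the floor, with a mean log2 ratio of 0.26 at a floor of 10.

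**Figure D3:**
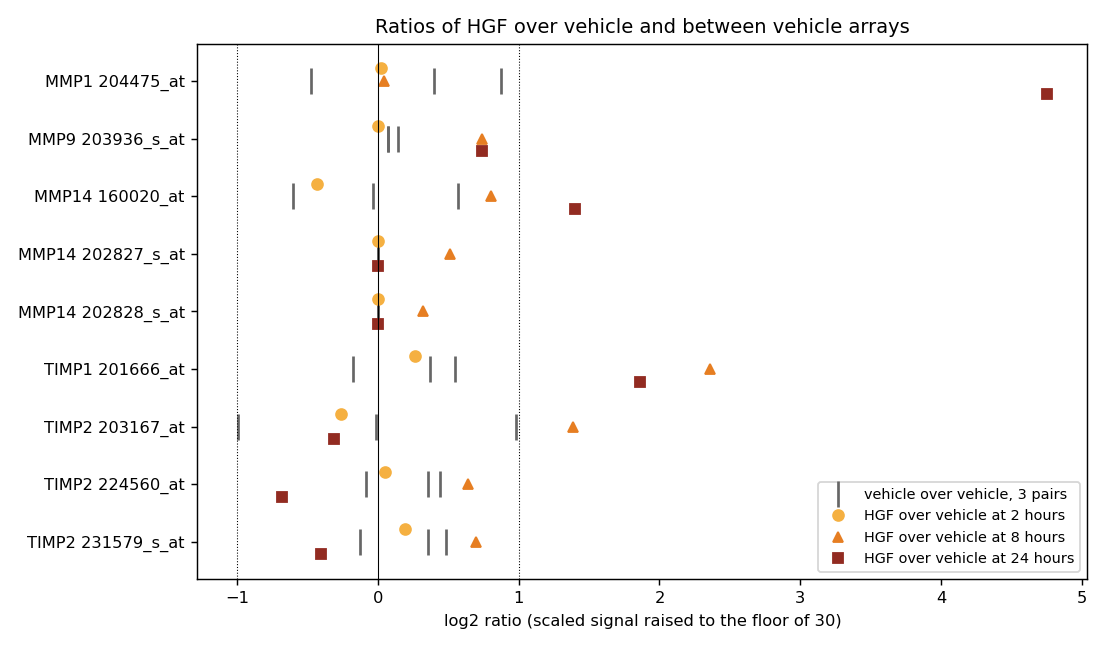
Log2 ratio of each probe set of the family that was above the floor in at least 1 array; circles, triangles and squares are HGF over vehicle at 2, 8 and 24 h, grey ticks are the 3 ratios between vehicle arrays, and dotted lines mark 2-fold. MMP1 at 24 h (4.75) and TIMP1 at 8 and 24 h (2.36 and 1.86) lay far beyond their vehicle ticks, and the 3 probe sets of TIMP2 lay on opposite sides of 0 at 8 and 24 h.

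TIMP1 is a secreted inhibitor of most MMPs, and its transcription is known to respond to growth factors. Probe set 201666_at gave 1010.0 with vehicle and 1210.7 with HGF at 2 h, 896.2 and 4595.9 at 8 h, and 1308.4 and 4756.1 at 24 h. The HGF arrays of 8 and 24 h stood above the other 4 arrays, and the 2-hour HGF array lay within the range of the vehicle arrays. HGF over vehicle was 1.20-fold at 2 h, 5.13-fold at 8 h and 3.64-fold at 24 h, log2 ratios of 0.26, 2.36 and 1.86. These ranked 752, 3 and 14 from the highest among 19775 genes. With HGF the 8-hour and 24-hour values differed by a log2 ratio of 0.05, and the smaller ratio at 24 h went with a vehicle array that was 1.46-fold higher than at 8 h. Ratios between vehicle arrays ran from -0.17 to 0.55 on the log2 scale.

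TIMP2 inhibits MMPs and also takes part in the activation of the MMP2 precursor by MMP14. Its probe set 203167_at gave 113.4 with vehicle and 94.7 with HGF at 2 h, 57.0 and 149.0 at 8 h, and 112.3 and 90.3 at 24 h. Here the 8-hour vehicle array was the lowest and the 8-hour HGF array the highest of the 6. On 224560_at the values were 707.9 and 732.7, 666.3 and 1039.2, and 905.0 and 564.7 in the same order, and on 231579_s_at they were 1182.5 and 1354.2, 1082.4 and 1755.2, and 1513.9 and 1141.4. All 3 probe sets were higher with HGF at 8 h and lower with HGF at 24 h. The mean log2 ratio was -0.01 at 2 h, 0.91 at 8 h and -0.47 at 24 h, and TIMP2 passed the rule as higher at 8 h through 203167_at, whose own log2 ratio was 1.39. Vehicle arrays differed by log2 ratios of -0.40 for 8 over 2 h, 0.23 for 24 over 2 h and 0.63 for 24 over 8 h, so the 8-hour vehicle value was the lowest of the 3. Against the mean of the 3 vehicle arrays TIMP2 did not pass at 8 h, nor did it with the brightest probe set alone. With the 3 vehicle arrays averaged, its mean log2 ratio was 0.56 at 8 h and -0.18 at 24 h.

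TIMP3, unlike the other TIMPs, stays bound to the extracellular matrix. Its 4 probe sets, 201147_s_at to 201150_s_at, were under the floor in all 6 arrays, and the highest value was 11.5 with vehicle at 8 h. No ratio was taken.

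**Figure D4:**
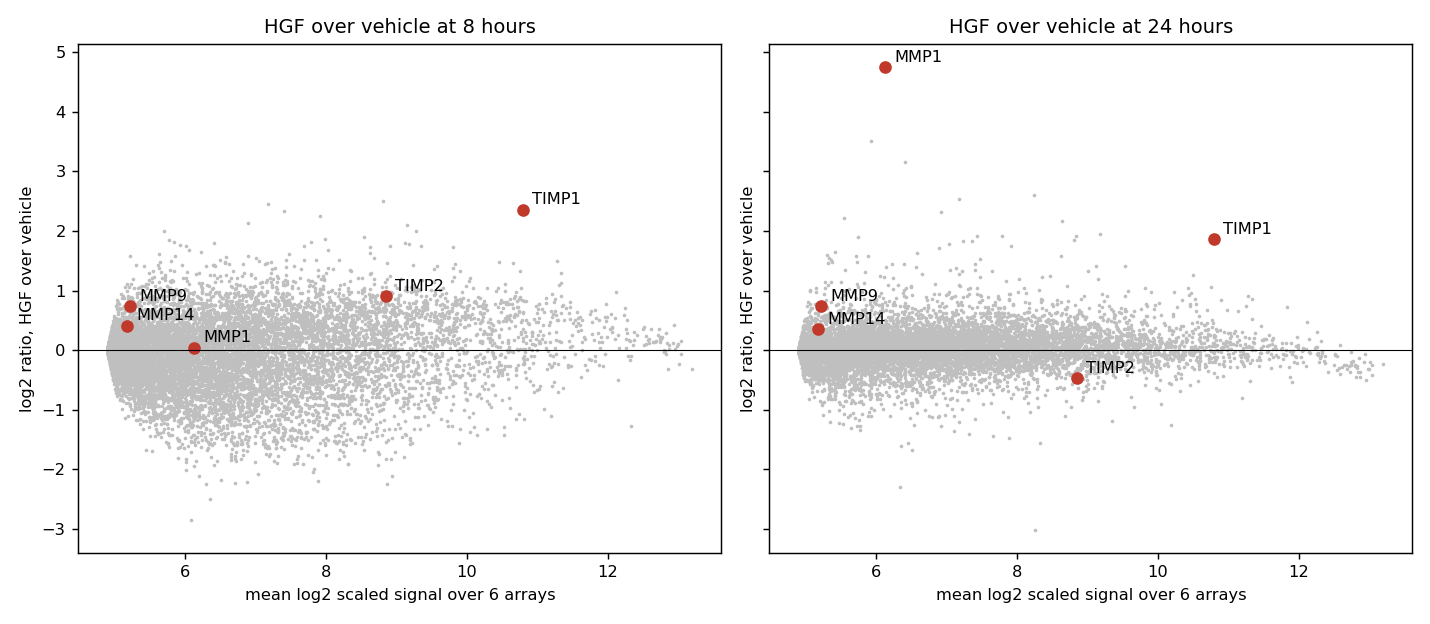
Log2 ratio of HGF over vehicle at 8 h (left) and 24 h (right) against the mean log2 scaled signal over 6 arrays for all 19775 genes (grey), with the 5 genes of the family above the floor in red. MMP1 was the highest point at 24 h (4.75) and close to 0 at 8 h (0.04), and TIMP1 lay near the top edge at both times.

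A test of the family over the whole series had to let the 3 time points stand in for replicates, 3 HGF arrays against 3 vehicle arrays with time as a block. In this limma fit 0 of 10002 genes (0%) passed at a Benjamini-Hochberg adjusted p of 0.05, and 403 had an unadjusted p under 0.05. TIMP1 had a mean log2 ratio of 1.49 with a standard error of 0.42 (limma, adjusted p = 0.912, unadjusted p = 0.0176), and was higher with HGF in 3 of 3 times. Without the 2-hour arrays its log2 ratio was 2.11 with an adjusted p of 0.146 by limma, the lowest over all 9 settings of the fit. MMP1 reached 1.61 with a standard error of 1.02 (limma, adjusted p = 0.912) and 0.03 once the 24-hour arrays were left out. MMP9 stood at 0.49, MMP14 at 0.22 and TIMP2 at 0.15, with standard errors of 0.20, 0.16 and 0.29 and limma adjusted p of 0.912, 0.912 and 0.946. A p that misses the threshold in this design does not show that a gene did not differ.

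The promoter sequences are shown for 3 members with different values, TIMP1 (higher at 8 and 24 h), MMP14 and MMP7 (under the floor), because MMP and TIMP promoters are known for binding sites of AP-1 (dimers of JUN and FOS proteins) and ETS factors, whose genes are described next. RefSeq promoter windows (GRCh38.p14) were given for 5 of the 10 genes, MMP7, MMP10, MMP14, TIMP1 and TIMP3. Each line gives the 120 bases before the transcription start, 5′ to 3′ on the strand of the gene, at chrX:47582316-47582435 (plus strand) for TIMP1, chr14:22836465-22836584 (plus strand) for MMP14 and chr11:102530748-102530867 (minus strand) for MMP7. Capitals mark matches to the motifs given after the lines.
TIMP1: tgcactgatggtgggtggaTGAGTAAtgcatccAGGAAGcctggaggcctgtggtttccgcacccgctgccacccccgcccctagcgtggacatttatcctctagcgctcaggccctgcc
MMP14: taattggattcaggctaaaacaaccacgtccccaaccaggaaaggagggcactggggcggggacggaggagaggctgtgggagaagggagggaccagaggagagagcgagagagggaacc
MMP7: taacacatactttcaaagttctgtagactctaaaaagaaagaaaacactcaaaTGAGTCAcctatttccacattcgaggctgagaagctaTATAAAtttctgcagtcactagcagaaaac

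Motifs were searched in the 250 bases before the start and were chosen with the sequences at hand. The AP-1 consensus was read as TGAGTCA on either strand and was held by 4.2% of 35116 promoters. A variant of this motif, TGAGTAA on either strand, was held by 2.21%. The ETS-type motif, AGGAAG on either strand, was held by 28.7%, and the TATA box, TATAAA on the strand of the gene only, by 6.8%. None of these motifs overlapped another in the windows of the family. In TIMP1 the AP-1 variant lay 101 to 95 bases before the start and an ETS-type match 87 to 82 bases before it. MMP7, which had no usable signal, held the AP-1 consensus 67 to 61 bases and a TATA box 30 to 25 bases before its start, with ETS-type matches on the other strand at 169 to 164 and 145 to 140 bases. MMP10 held a TATA box 31 to 26 bases before its start. MMP14 and TIMP3 had none of these letters in the window. A match is a run of letters and not a measured binding site.

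Several genes of transcription factors known to act on MMP promoters were higher with HGF at 2 h. A link between these genes and the values of the MMP and TIMP genes was not tested. Of 16 named AP-1, ETS and RUNX genes, 6 were higher at 2 h, 5 at 8 h and 4 at 24 h by the selection rule, and 0 were lower at any time. Over all named genes the rule took 0.42%, 2.69% and 1.03% as higher at these times. The list was chosen with earlier results of these data known. RUNX1 was not analysed here. The median log2 ratio of those with a mean signal above the floor was 0.34, 0.28 and 0.47 at the 3 times, against -0.04, -0.05 and 0.02 for all 9889 such genes. FOSL1, a FOS-family partner in AP-1, gave 298.6 with vehicle and 935.7 with HGF at 2 h, 347.4 and 1384.9 at 8 h, and 483.8 and 906.9 at 24 h on its brightest probe set. The gene log2 ratios of FOSL1 were 1.65, 2.00 and 0.91.

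FOS gave 86.5, 44.0 and 45.0 with HGF at 2, 8 and 24 h on its brightest probe set and was under the floor in all vehicle arrays, so its log2 ratios of 1.53, 0.55 and 0.59 against the floor are lower bounds. JUNB, a JUN-family partner, gave 104.3 and 270.9 at 2 h, 79.6 and 218.8 at 8 h, and 103.7 and 176.2 at 24 h. The log2 ratios of JUNB were 1.38, 1.46 and 0.76. ELK3, an ETS factor, was at 476.4 and 473.2, 605.4 and 652.5, and 413.0 and 1292.0 on its brightest probe set. There, as for MMP1, the 24-hour HGF array alone stood apart. The mean log2 ratio of ELK3 over its probe sets was 1.33 at 24 h.

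**Figure D5:**
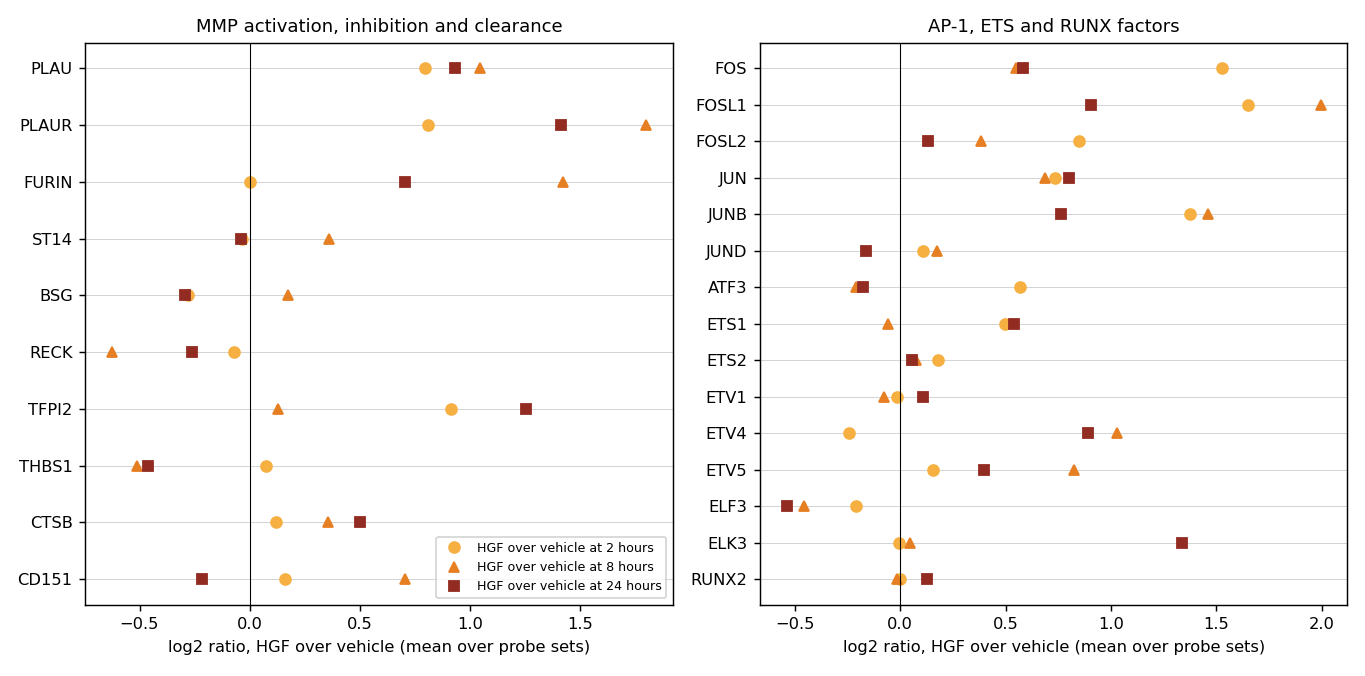
Log2 ratio of HGF over vehicle, the mean over the probe sets of a gene, for genes above the floor in at least 1 array of 2 lists, activation, inhibition and clearance of MMPs (left) and AP-1, ETS and RUNX factors (right); circles, triangles and squares are 2, 8 and 24 h. PLAUR lay at 0.81, 1.80 and 1.42 and FOSL1 at 1.65, 2.00 and 0.91, while ELK3 left 0 at 24 h (1.33).

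Some genes that act on MMP precursors or their inhibitors were higher by the same rule. Of 15 named genes of MMP activation, inhibition and clearance, 2 were higher and 0 lower at 2 h, 3 higher and 2 lower at 8 h, and 2 higher and 0 lower at 24 h. Over all genes the rule took 0.42% and 0.0556%, 2.69% and 7.94%, and 1.03% and 0.556%, and a list of this size is too small to read its counts closely against these shares. PLAUR, the receptor that holds urokinase at the cell surface, gave 581.4 with vehicle and 1285.6 with HGF at 2 h, 684.1 and 3059.7 at 8 h, and 786.8 and 2340.2 at 24 h on its brightest probe set. The log2 ratios of PLAUR, as means over its probe sets, were 0.81, 1.80 and 1.42. Urokinase itself (PLAU) activates plasmin, an activator of several MMP precursors. On its brightest probe set PLAU gave 1264.2 and 2069.1, 1449.1 and 2745.2, and 1832.0 and 3407.6. The mean log2 ratios of PLAU over its probe sets were 0.80, 1.05 and 0.93, and the gene passed the rule at 8 h.

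FURIN, a convertase that removes the propeptide of MMP14, was under the floor at 2 h and gave 23.8 and 80.4 at 8 h and 33.2 and 54.1 at 24 h. Its 8-hour log2 ratio was at least 1.42, with the vehicle value at the floor, and that at 24 h was 0.71. TFPI2, a secreted inhibitor of plasmin and other serine proteases, gave 1666.3 and 2684.1, 2583.0 and 3217.4, and 1876.0 and 3078.4 on its brightest probe set. The mean log2 ratios over its probe sets were 0.92, 0.13 and 1.25. The vehicle arrays of TFPI2 differed by a mean log2 ratio of 0.76 between 2 and 8 h. RECK, a membrane-anchored MMP inhibitor, and THBS1, a matrix protein, were the 2 genes lower at 8 h, at -0.63 and -0.51; they were named after their values were seen. The median log2 ratio of this list was 0.10, 0.36 and 0.23 at the 3 times, against -0.04, -0.05 and 0.02 for all 9889 genes with a mean signal above the floor.

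The rest of the MMP and TIMP genes were mostly under the floor on these arrays. Of 16 further named genes, 3 were above the floor in any array, MMP11, MMP15 and MMP17, and MMP23B was not analysed here. MMP15, a second membrane-type MMP, gave 36.8 with vehicle and 33.4 with HGF at 2 h, 34.3 and 78.0 at 8 h, and 71.9 and 61.9 at 24 h on its brightest probe set. It was higher by the rule at 8 h with a mean log2 ratio of 0.59, and its 24-hour vehicle value lay close to the 8-hour HGF value. MMP2, the target of MMP14 and TIMP2, did not pass 15.8 in any array.

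Among the related ADAM and ADAMTS proteases, which shed cell surface proteins or cut proteoglycans, 0 of 14 genes were higher at any time and 3 were lower at 8 h. ADAM10 gave 1080.4 and 938.9, 1276.1 and 421.6, and 767.1 and 688.2 on its brightest probe set. The mean log2 ratios over all its probe sets were -0.10, -2.19 and -0.31. ADAM9 and ADAM17 were lower at 8 h, at -1.10 and -0.80. The 8-hour HGF array held the lowest value of all 3 genes, and 7.94% of all genes were lower at that time. The vehicle arrays of ADAM10 differed by a mean log2 ratio of -1.24 for 24 over 8 h.

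Matrix and surface substrates of the MMPs were changed by the rule at 24 h only, where 1 of 14 named genes was higher and 2 were lower. Over all genes the rule took 1.03% as higher and 0.556% as lower at that time, and so small a list cannot be read closely against these shares. For the 3 genes named next, signals are from the brightest probe set, while log2 ratios are means over all probe sets of the gene. TNC (tenascin-C) gave 64.9 and 66.6, 76.0 and 86.7, and 41.7 and 159.0, with a mean log2 ratio of 0.64 at 24 h. HSPG2 (perlecan, a basement membrane proteoglycan) gave 69.5 and 70.3, 114.9 and 109.4, and 140.1 and 58.8, a log2 ratio of -0.63 at 24 h. CDH1 (E-cadherin, the adhesion protein of epithelial cells) gave 655.6 and 743.4, 718.0 and 669.0, and 591.2 and 270.3, a log2 ratio of -0.57 at 24 h. In each of these 3 genes the 24-hour HGF array was the highest or the lowest of the 6. The median log2 ratio of the list stayed between 0.05 and 0.08 at the 3 times, against -0.05 to 0.02 for all 9889 genes.

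The genes whose log2 values ran most like those of a member are given as a description over 6 arrays that share time and treatment. For MMP1 they were FERMT1, which encodes the integrin activator kindlin-1 (r = 0.992), the transmembrane collagen COL13A1 (0.990), LTBP2, a binding protein of latent TGF-beta (0.989), the calcium-binding S100A9 (0.979) and CALB2 (0.976), among 1506 genes with a range of at least 1 on the log2 scale. All 5 had their highest value in the 24-hour HGF array, such as FERMT1 at 281.8 against 117.3 to 134.8 in the other arrays, so these correlations rest on 1 array. For TIMP1 they were the cytoskeletal protein SMTN (0.992), the calcium-binding S100A2 (0.988) and S100A16 (0.987), the fibronectin receptor subunit ITGA5 (0.986) and the proteoglycan SDC1 (0.986), all high in the HGF arrays of 8 and 24 h. ITGA5, for example, gave 142.1 and 143.6, 131.1 and 335.4, and 171.1 and 429.0. For TIMP2 they were FDPS, an enzyme of isoprenoid synthesis (0.986), DYNC2I2 (0.978), GSTP1 (0.977), LOC728392 (0.970) and YIF1A (0.970), among 1507 genes. FDPS gave 2676.3 and 2576.9, 1713.7 and 3641.3, and 3026.3 and 2106.1, lowest with vehicle and highest with HGF at 8 h, as did the other 4.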

How the data were processed

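RNA of DU145 cells was hybridised to 6 Affymetrix arrays, 1 per condition, and conditions were taken from the labels. The authors deposited linear intensities of 54675 probe sets per array. Their processing notes list MAS5, with no version or target in the sources used here. The mean of 150 and the floor of 30 that the methods describe are not part of the deposited intensities, whose array means ranged from 149.1 to 205.4, and were applied here. Quantile normalization, which the methods also describe, was run here only as an alternative. Of the probe sets in the platform annotation 41091 had 1 symbol, and 1801 with several were not used. Gene ratios are means of log2 ratios over probe sets. Where 1 array of a pair was at the floor the ratio is a bound, and where both were none is reported for that probe set, which entered the gene mean as 0. The selection rule, with the thresholds that the study set for 24 h and this averaging, asks for 2-fold in a probe set and a mean log2 ratio of 0.5 (1.41-fold). Genes above 30 in 3 or more arrays were tested with limma 3.58.1 (lmFit, eBayes, R 4.3.3), with Benjamini-Hochberg adjustment. The 10 lists held 106 entries, 9 of them not analysed here. Named were all 10 members and the 5 genes most like each member that passed. Of each list other than the cell type markers, up to 4 genes that passed the rule with the largest ratios were named. Of the epithelial markers, MET (-1.66), EPCAM (-1.11) and KRT19 (0.855) passed the rule at 8 h, when 7.94% of all genes were lower, and CDH1 (-0.57) at 24 h. Members and lists were chosen with earlier results of these data known. The number of arrays limits the precision. Steps were tested on simulated arrays that had the same change at all 3 times, in genes well above the floor. That setting does not cover a change at a single time or near the floor. Tables and figures were made with pandas 2.3.3, numpy 2.4.6 and matplotlib 3.10.9 in Python 3.11.15. Alternatives were other floors, scalings, probe set summaries, references and thresholds, and for limma no block, no filter, a variance trend and leaving out each time.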

Additional observations from a re-analysis of the deposited data

Results flagged for a closer look

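The ratio of HGF over vehicle of the same time pointed in opposite directions at different times for 2 genes. The difference was not tested in either gene, since each time has 1 array per condition. For MMP14 the log2 ratio of HGF over vehicle at 8 h minus that at 2 h was 0.52, and at 24 h minus that at 2 h it was 0.46, with a 2-hour ratio of -0.11 that came from 160020_at at 31.7 against 42.8, both near the floor. That 2-hour ratio was 0.26 with a floor of 10 and 0.00 with a floor of 60 or the median over probe sets, so its direction was not kept. For TIMP2 the ratio at 24 h minus that at 8 h was -1.38, and all 3 of its probe sets changed sides. The size of its 24-hour ratio depended on which vehicle arrays served as reference. It was -0.47 with the 24-hour vehicle array, -0.18 with all 3 averaged and -0.03 with those of 2 and 8 h averaged. Only on 224560_at was the 24-hour HGF value below every vehicle value.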

How the results depend on the processing

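With 1 array per condition no replicate could be left out within a time, and no replicate numbers pair the arrays, so the limma fit took time as its block. MMP1 passed the selection rule at 24 h and TIMP1 at 8 and 24 h under each alternative run. No member ratio with a main log2 value of 0.5 or more in size changed sign. Smaller ratios were not counted as reversals, and some changed sign. Examples were MMP14 at 2 h (-0.43 to 0.26), MMP1 at 8 h (-0.095 to 0.49) and TIMP2 at 2 h (-0.11 to 0.20). The 24-hour log2 ratio of MMP1 ran from 4.15 to 5.08, that of TIMP1 from 1.70 to 2.32 and at 8 h from 2.12 to 2.45. At 8 h the count of members went from 2 to 1 with the brightest probe set and to 1 with a 3-fold threshold, in both cases without TIMP2, and was 3 with quantile normalization, which added MMP14. Against the mean of the 3 vehicle arrays it was MMP14 and TIMP1. At 24 h it was 3 with the brightest probe set, a floor of 10 and without _s_at and _x_at probe sets, each adding MMP14, and 3 with deposited values without scaling, which added MMP9. Leaving out _s_at and _x_at probe sets left 8 members with a value. By limma the count was 0 under each alternative with adjusted p, leaving out each time in turn included, and 1 (TIMP1) at an unadjusted p of 0.05, while 3 genes that are no members passed without the block and 3 with the brightest probe set. Over all genes the 8-hour counts of 531 higher and 1571 lower became 1086 and 998 with quantile normalization, 741 and 1320 with centred ratios, 351 and 2188 without scaling, 754 and 2442 with a floor of 10, 389 and 1016 with a floor of 60, 303 and 820 with the 3 vehicle arrays averaged, and 68 and 498 at 3-fold. The 204 and 110 of 24 h became 697 and 41 without scaling, 431 and 433 with a floor of 10, 139 and 48 with a floor of 60, 176 and 342 against the vehicle arrays of 2 and 8 h, and 45 and 11 at 3-fold. At 2 h 83 and 11 became 217 and 184 with a floor of 10. The causes were not tested.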
